A study of Homo sapiens with 6 samples.

Results

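RGS19 and 9 other genes linked to inhibitory G proteins were read from a count table of OVCA433 cells, an established human ovarian cancer line. They are 7 genes of regulators of G-protein signalling (RGS19, RGS2, RGS3, RGS10, RGS12, RGS14 and RGS16) and the 3 genes of the inhibitory alpha subunits (GNAI1, GNAI2 and GNAI3). They were taken as the rows whose symbol equals one of these names, and all 10 were found among the 26699 rows of the table. The series title asks what a deficiency of the coiled-coil protein gene SOGA1 does to expression in ovarian cancer cells. Poly(A) RNA was sequenced in 3 libraries of a group named OVSOGA1sinc and 3 of a group named OVSOGA1si, called sinc and si here. The labels spell out neither name, give no age, dose or time, and do not say what reagent was used. All 6 libraries come from the same line, and nothing says that those of a group came from separate cultures. The spread between them may therefore be technical.

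A heterotrimeric G protein switches on when a receptor loads its alpha subunit with GTP. The inhibitory alpha subunits then lower cAMP by inhibiting adenylyl cyclases, while the freed beta-gamma pair acts on other effectors. RGS proteins speed up GTP hydrolysis on the alpha subunit and so shorten the signal. In ovarian cancer cells, receptors for lysophosphatidic acid are a well-known source of such signals.

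Total counts per library lay between 33778707 and 44130601. SOGA1 itself stood at 62.7 ± 2.60 CPM over the sinc libraries against 24.3 ± 3.64 over the si libraries, on the scale of CPM, counts divided by library size and TMM factors. Here and below, the value after ± is the SD over the 3 libraries of a group (n = 3), and log2 fold changes are si minus sinc. Its log2 fold change was -1.37 (SE 0.11, adjusted p = 0.000963 by edgeR's quasi-likelihood test with Benjamini-Hochberg adjustment across all 15562 tested genes). An exact two-sided permutation test over the 6 libraries gave p = 0.1, the smallest that 3 against 3 allows. Of the 10 ovarian and epithelial markers, CDH1 and MUC16 were not analysed here and WT1 stayed at or under 0.145 CPM. EPCAM was low, from 0.946 to 2.21 CPM, while KRT7, KRT8, KRT18, PAX8 and MSLN were abundant. The 8 analysed genes of this list, KRT19 included, summed to 7092 to 7553 CPM in sinc and 7262 to 7726 CPM in si. Of the 10 markers of leukocytes, fibroblasts and endothelium, PTPRC and COL3A1 were not analysed here, and CD3E, CD14 and PECAM1 stayed at or under 0.236 CPM. This list summed to 138 to 141 CPM in sinc and 155 to 175 CPM in si, most of it from the collagen gene COL1A1, which rose from 103 ± 2.34 to 131 ± 6.76 CPM (log2 fold change 0.34, adjusted p = 0.0172 by edgeR). CD68, a macrophage marker, stood at 21.7 ± 2.95 CPM in sinc and 22.7 ± 3.18 in si, and CDH5, an endothelial cadherin, at 11.3 ± 0.630 and 8.11 ± 1.44 CPM (log2 fold change -0.48, adjusted p = 0.093). The part of this list in the values below was not tested.

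The members were selected on the contrast of si against sinc, in which RGS19 was high in si. Their differences are therefore given as a description, with fitted log2 fold changes and standard errors and with no p. Of the 10 genes, 9 passed the filter on low counts and RGS16 did not. The fit placed 3 of these 9 beyond an adjusted p of 0.05 (RGS19, GNAI2 and GNAI1), against 10.1% of all genes tested. The CPM values of the groups did not overlap for 4 of the 9 (these 3 and RGS3), against 34.9% of all genes tested. Nothing is read from either count. In bulk libraries such as these, fewer cells with a transcript and less of it per cell cannot be told apart.

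RGS19, also known as GAIP, was found as a binding partner of the inhibitory alpha subunits and acts on them as a GTPase-activating protein. The gene (ENSG00000171700) lies on chromosome 20, 64073181 to 64079988 on the minus strand, in GENCODE 29 on GRCh38. Sinc replicates 1, 2 and 3 held 662, 661 and 740 reads of it, and the si replicates, in the same order, held 1135, 1261 and 1037. On the CPM scale these were 16.1, 15.0 and 19.3 in sinc and 32.5, 31.5 and 30.6 in si. Every si library lay above every sinc library, and the si values were closer to each other than the sinc values. The means were 16.8 ± 2.22 CPM over the sinc libraries against 31.5 ± 0.958 over the si libraries, so that si stood at 188% of the sinc level. The fitted log2 fold change was 0.91 (SE 0.11).

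RGS19 is transcribed away from OPRL1, the gene of the nociceptin receptor, which couples to inhibitory G proteins. The annotated ends of the 2 genes that face each other are 185 bases apart, and no RGS19 exon shares bases with an exon of another gene. The promoter window of RGS19 is shown because most of it also lies in the promoter window of OPRL1. The window, from RefSeq on GRCh38.p14, runs from 250 bases before the outermost RGS19 start to 50 bases from it on, chr20:64079915-64080214 on the minus strand, and capitals mark the 217 bases that also lie in the OPRL1 window.
RGS19 promoter: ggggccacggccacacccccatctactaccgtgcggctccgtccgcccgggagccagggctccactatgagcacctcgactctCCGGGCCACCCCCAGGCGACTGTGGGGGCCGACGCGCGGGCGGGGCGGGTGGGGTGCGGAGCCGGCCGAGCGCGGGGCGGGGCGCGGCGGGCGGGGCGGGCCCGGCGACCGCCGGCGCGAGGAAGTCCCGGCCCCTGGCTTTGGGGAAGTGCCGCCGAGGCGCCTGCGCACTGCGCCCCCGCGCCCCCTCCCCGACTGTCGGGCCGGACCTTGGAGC
The window has a GC content of 80.3%, and 2.30% of the 35116 promoter windows in the table reach that. The GC box core GGGCGG occurs 5 times on the strand shown and 1 time on the other. Of all windows, 44.95% hold it at least once on either strand and 2.86% hold it at least 6 times. OPRL1 stood at 2.33, 2.45 and 2.47 CPM in sinc replicates 1, 2 and 3 and at 2.18, 2.85 and 2.69 CPM in si, so that the groups overlapped. Its log2 fold change was 0.09 (SE 0.19, adjusted p = 0.79 by edgeR). The difference between the 2 genes was not tested. Among the other genes within 50 kb, TCEA2, a transcription elongation factor gene, had a log2 fold change of 0.15 (SE 0.08, adjusted p = 0.24) and the splicing factor gene PRPF6 one of -0.04 (SE 0.05, adjusted p = 0.64). SOX18, a transcription factor gene, was low at 0.403 ± 0.0986 CPM over the sinc libraries against 0.498 ± 0.200 over the si libraries. C20orf204, MYT1 and MIR6813 were under 0.43 CPM in every library and were not tested. Of the 4 neighbours tested, 0 passed by edgeR, 0 by DESeq2, 0 by limma-voom and 0 with an unadjusted p below 0.05. DESeq2 gave no adjusted p for OPRL1 and SOX18, so that it could call TCEA2 and PRPF6 only. Among all genes tested, DESeq2 called 8.38% higher and 10.4% lower, and 14.1% and 15% had an unadjusted p below 0.05. Over all genes tested, edgeR called 10.1%, so that 0 of 4 lies near that share.

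**Figure D1:**
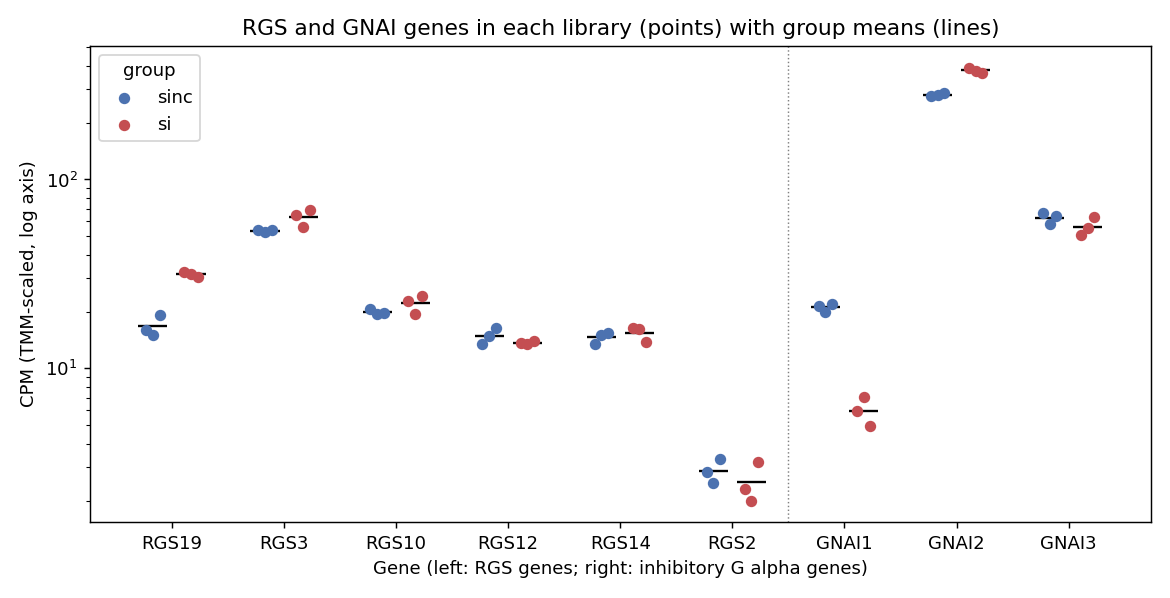
CPM of 9 genes in each library on a log axis, with sinc in blue, si in red, 1 point per library and a line at each group mean. RGS19 and GNAI2 sit higher in all 3 si libraries and GNAI1 sits lower, while RGS2, RGS10, RGS12, RGS14 and GNAI3 overlap between the groups. RGS16, at or under 5 counts in every library, is left out.

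The inhibitory alpha subunits differed from each other in direction. GNAI1 (ENSG00000127955; chromosome 7, 79768028 to 80226181, plus strand) had counts of 885, 879 and 838 over sinc replicates 1 to 3 and of 207, 283 and 168 over the si replicates. Its CPM values were 21.5, 19.9 and 21.8 in sinc and 5.93, 7.07 and 4.96 in si. All 3 si libraries lay far below all 3 sinc libraries. The means were 21.1 ± 0.997 CPM over the sinc libraries against 5.99 ± 1.06 over the si libraries, and 28.4% of the sinc level was present in si. The log2 fold change was -1.81 (SE 0.15), and 27 of the 15562 genes tested, GNAI1 included, were at or below it.

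GNAI2 (ENSG00000114353; chromosome 3, 50226292 to 50259355, plus strand), the most abundant of the 10 genes, went the other way. It stood at 277, 281 and 286 CPM in sinc replicates 1, 2 and 3 and at 391, 377 and 365 CPM in si. The groups did not overlap, with means of 281 ± 4.84 CPM over the sinc libraries against 378 ± 12.9 over the si libraries. The log2 fold change was 0.43 (SE 0.05). GNAI3 (ENSG00000065135; chromosome 1, 109548611 to 109618321, plus strand) stood at 66.1, 58.1 and 64.4 CPM in sinc and at 51.0, 55.1 and 63.0 CPM in si. The groups overlapped, and the log2 fold change was -0.16 (SE 0.09). Part of GNAI3 is uncertain, since 4.9% of its annotated exon bases overlap GNAT2 on the opposite strand, and whether the counting used strand is not given in the sources used here. On its own strand it shares 2.2% with AL355310.1, 0.5% with AMPD2 and 0.3% with MIR197, which strand cannot separate.

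The summed level of the 3 alpha subunit genes was 365 ± 6.99 CPM over the sinc libraries against 440 ± 7.45 over the si libraries. GNAI1 made up 5.89%, 5.56% and 5.85% of that sum over sinc replicates 1 to 3 and 1.32%, 1.61% and 1.15% over the si replicates. The widest 95% exact binomial interval of these shares in si reached from 1.43% to 1.81% (replicate 2), and such intervals cover counting error only. GNAI2 made up 77.0 ± 1.15% in sinc and 85.8 ± 1.48% in si, and GNAI3 made up 17.2 ± 0.977% and 12.8 ± 1.59%. Per 100 CPM of the summed alpha subunits there were 4.58 ± 0.518 CPM of RGS19 over the sinc libraries against 7.17 ± 0.0974 over the si libraries. The shares depend on the scale, since the coding transcripts used are 10126 bases long for GNAI1, 2464 for GNAI2 and 27174 for GNAI3. With CPM divided by these lengths, GNAI1 made up 1.76 ± 0.0768% in sinc and 0.379 ± 0.0636% in si, GNAI2 96.3 ± 0.211% and 98.3 ± 0.168%, and GNAI3 1.95 ± 0.135% and 1.33 ± 0.187%. All these shares follow from the same values as the differences above.

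**Figure D2:**
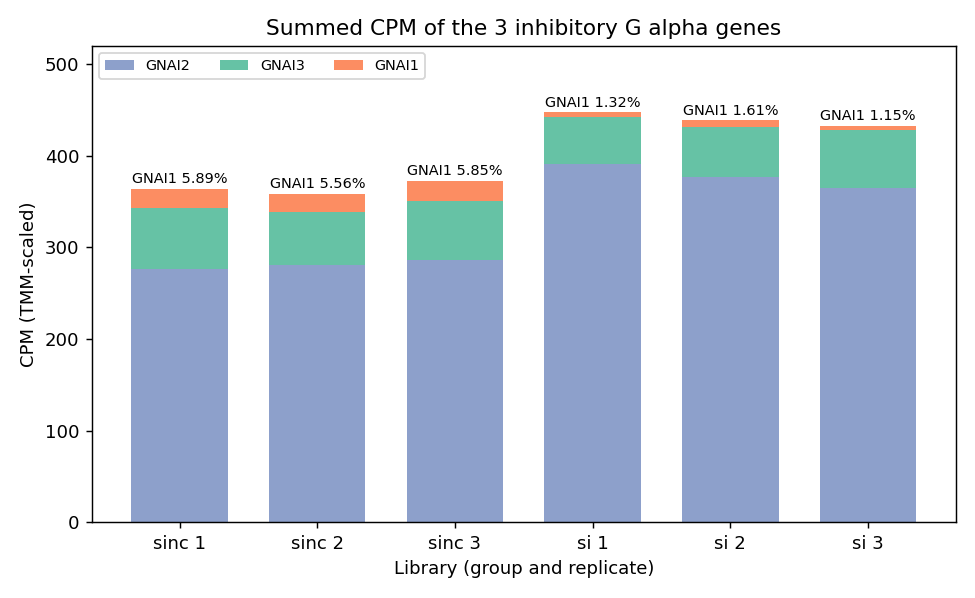
Stacked CPM of GNAI2, GNAI3 and GNAI1 in each library, with the share of GNAI1 in the stack printed above each bar. The stacks are between 359 and 373 CPM in sinc and between 433 and 448 CPM in si, and the share of GNAI1 in CPM, not divided by length, is 5.56% to 5.89% in sinc and 1.15% to 1.61% in si.

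The other RGS genes of the set that were tested had smaller differences than RGS19. The high level of RGS19 in si was known when the set was chosen, so nothing is read from that order. Differences between genes were not tested. RGS3, an activator of GTP hydrolysis on inhibitory and Gq-type subunits, was at 54.2, 52.6 and 53.8 CPM in sinc replicates 1, 2 and 3 and at 64.5, 55.8 and 68.6 CPM in si. The si values were all above the sinc values but spread more widely, and the log2 fold change was 0.23 (SE 0.08). RGS10, a small regulator of inhibitory subunits whose loss has been linked to drug resistance in ovarian cancer cells, was at 20.5, 19.4 and 19.6 CPM in sinc and at 22.7, 19.3 and 24.3 CPM in si. These ranges overlapped, with a log2 fold change of 0.16 (SE 0.11). RGS12 and RGS14 are larger scaffolds that also carry a GoLoco motif, which holds inhibitory alpha subunits in the GDP-bound state. RGS12 was at 14.9 ± 1.44 CPM over the sinc libraries against 13.7 ± 0.249 over the si libraries (log2 fold change -0.12, SE 0.12). RGS14 was at 14.6 ± 0.977 and 15.5 ± 1.46 CPM (log2 fold change 0.08, SE 0.12). Both genes overlapped between the groups.

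RGS2, which prefers Gq-type subunits, was low, from 2.47 to 3.33 CPM in sinc and from 2.00 to 3.22 CPM in si (log2 fold change -0.20, SE 0.24). RGS16, a regulator of inhibitory and Gq-type subunits, had counts of 0, 5 and 0 over sinc replicates 1 to 3 and of 0, 0 and 2 over the si replicates. Where its count was 0, a floor of 3 counts per library applies, so that neither a level nor a fold is given.

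Between genes, levels were compared as CPM per kilobase of 1 coding transcript per gene. In sinc GNAI2 led at 114 CPM per kilobase, followed by RGS10 at 24.7, RGS3 at 11.7, RGS19 at 10.5, RGS14 at 6.05, RGS12 at 2.72, GNAI3 at 2.31, RGS2 at 2.13 and GNAI1 at 2.08. The ranges over the 3 libraries overlapped between RGS3 and RGS19, and between GNAI3, RGS2 and GNAI1. In si RGS19 had 19.2 to 20.4 CPM per kilobase and RGS3 12.2 to 14.9, and GNAI1 was the lowest of the 9 genes at 0.490 to 0.698. The place of GNAI3 depends on its annotation, because its coding transcript in GENCODE 29 is 27174 bases long, nearly all of it 3' UTR. Per kilobase of coding sequence GNAI3 had 59.2 CPM in sinc and GNAI1 had 19.8.

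The 3' UTR of GNAI1 holds the 7 bases TGAAGTA. That sequence had been picked in an earlier scan of these same libraries for sequences whose carriers were lower in si, so its presence lends no support to anything here. Its site in GNAI1 is shown with its neighbouring bases, at chr7:80219006-80219034 on the plus strand of GRCh38 in a GENCODE 29 transcript. Capitals mark the 7 bases, which begin 1524 bases after the stop codon.
GNAI1 3' UTR site: tgtcactgggtTGAAGTAtatttgtgtgt
Of 18 coding transcripts annotated for GNAI1, 8 hold it in the 3' UTR. On the strand of the transcript, 11.6% of the 12499 tested genes with an annotated 3' UTR hold it. Their median log2 fold change was -0.31, whereas genes without it had 0.02. Carriers have longer 3' UTRs, with a median of 3027 bases against 836, and the part of that length was not tested here. Among the other members, GNAI3 holds 3 copies in its 3' UTR of 25999 bases, and RGS19 and RGS10 hold 1 copy each in their coding sequence. RGS2, RGS3, RGS12, RGS14, RGS16 and GNAI2 hold none in either region of the transcript used.

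Transcript GC content moved with the differences. Across the 12749 tested genes with an annotated coding transcript, the Spearman correlation of the log2 fold change with GC content was 0.49 and that with transcript length was -0.47, as a description over genes that share the same 6 libraries. Genes under 45% GC had a median log2 fold change of -0.26 and genes of 55% or more had 0.14. RGS19 has 62.3% GC, GNAI2 59.3% and GNAI1 37.1%, so that each lies on the side of its difference. Of the other members of 55% or more, RGS3 (58.9%) had a log2 fold change of 0.23 and RGS14 (62.9%) 0.08. RGS12 (56.2%) had -0.12. What lies behind the relation to length and GC content was not tested. With each library corrected for length and GC content, the log2 fold change was 0.71 for RGS19, 0.30 for GNAI2 and -1.29 for GNAI1. The correction turned the sign of GNAI3, to 0.48, and of RGS14, to -0.07.

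**Figure D3:**
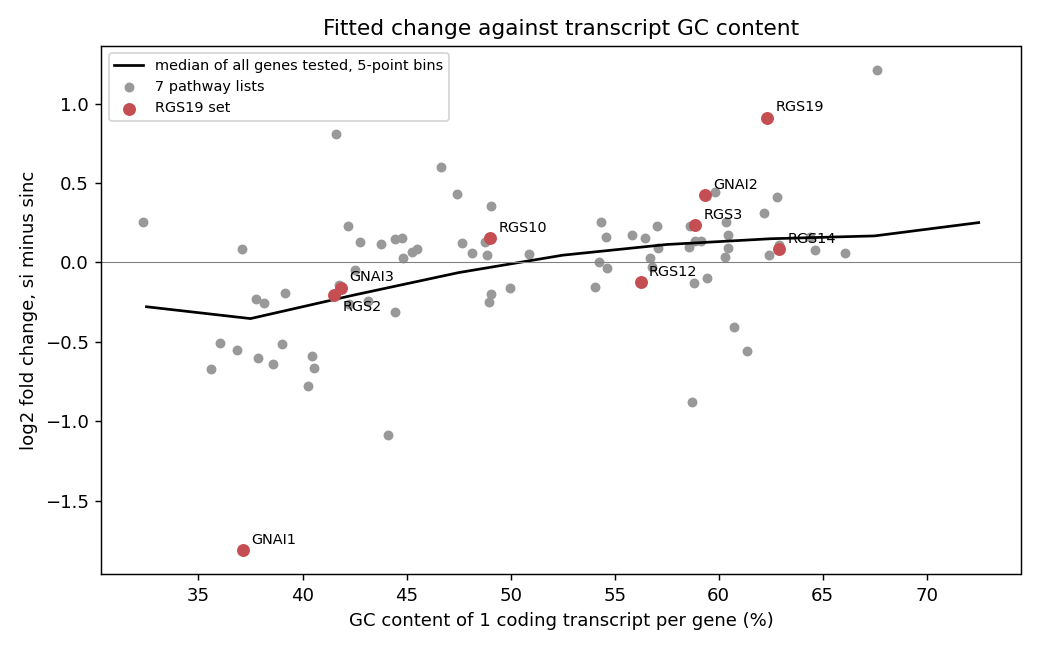
Log2 fold change, si minus sinc, against the GC content of 1 coding transcript per gene, for 9 genes of the RGS19 set in red and 73 rows of 7 pathway lists in grey. The black line gives the median of all genes tested in bins of 5 percentage points with at least 20 genes. RGS19 lies above that line and GNAI1 below it.

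**Figure D4:**
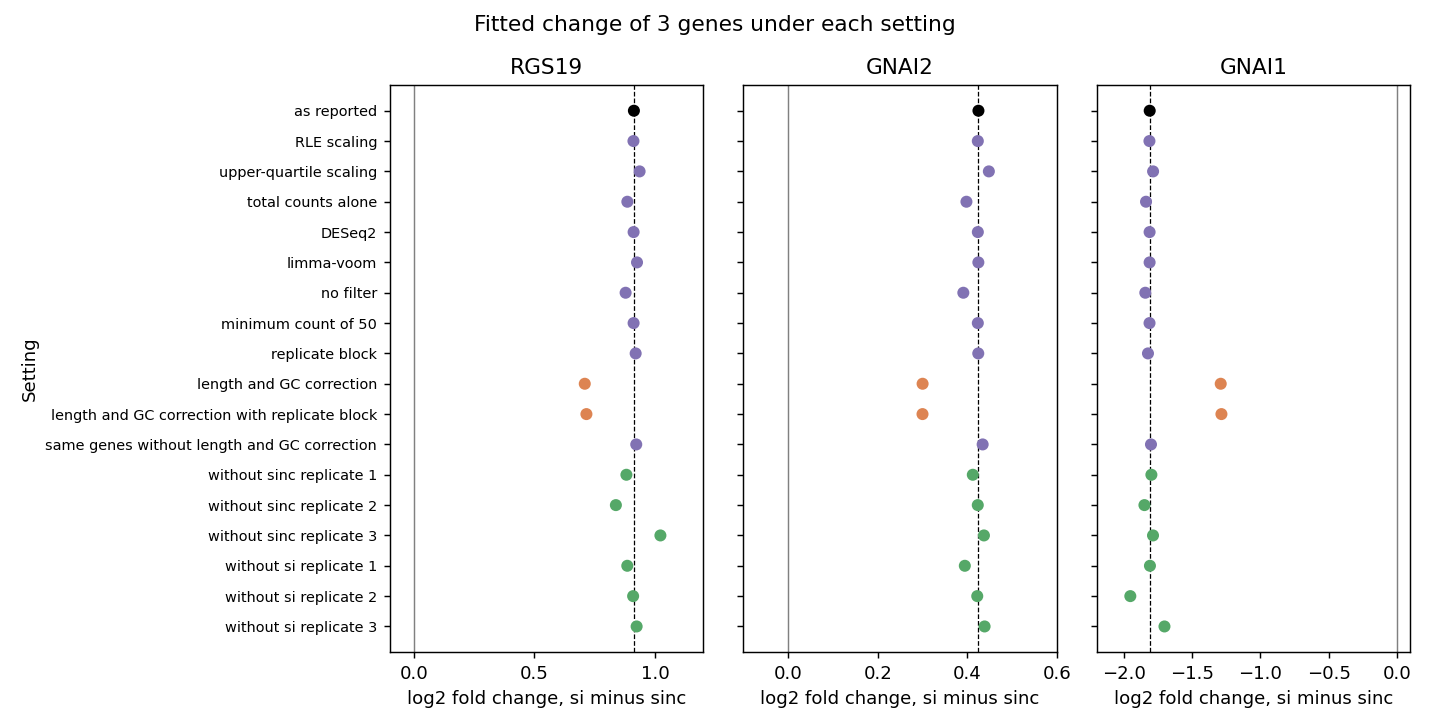
Log2 fold changes of RGS19, GNAI2 and GNAI1 under each setting, with the reported value in black and as a dashed line, other scalings, tools and filters in purple, the length and GC correction in orange and fits without 1 library in green. RGS19 lay between 0.71 and 1.02, GNAI2 between 0.30 and 0.45, and GNAI1 between -1.96 and -1.29.

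The rest of the pathway was followed in 7 lists of 154 genes, none of them a member, of which 112 were in the table and 73 were tested. RGS5 is counted under 2 gene IDs, which gives 74 tested rows. By edgeR's adjusted p, 2 rows were higher in si and 3 were lower, that is GNA11 and GNA15 against GNG12, CCDC88C and PRKAR2B. Over all genes tested 4.14% were higher and 6% were lower. The median log2 fold change of the 74 rows was 0.06, against 0.01 over all genes. With upper-quartile scaling the calls over all genes split into 1005 higher and 890 lower, in place of 645 and 934, and those in the lists into 4 and 3. Without sinc replicate 1, 2 or 3, or without si replicate 1, the lists held 0 higher and 1 lower, and without si replicate 2 they held 2 higher and 9 lower.

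**Figure D5:**
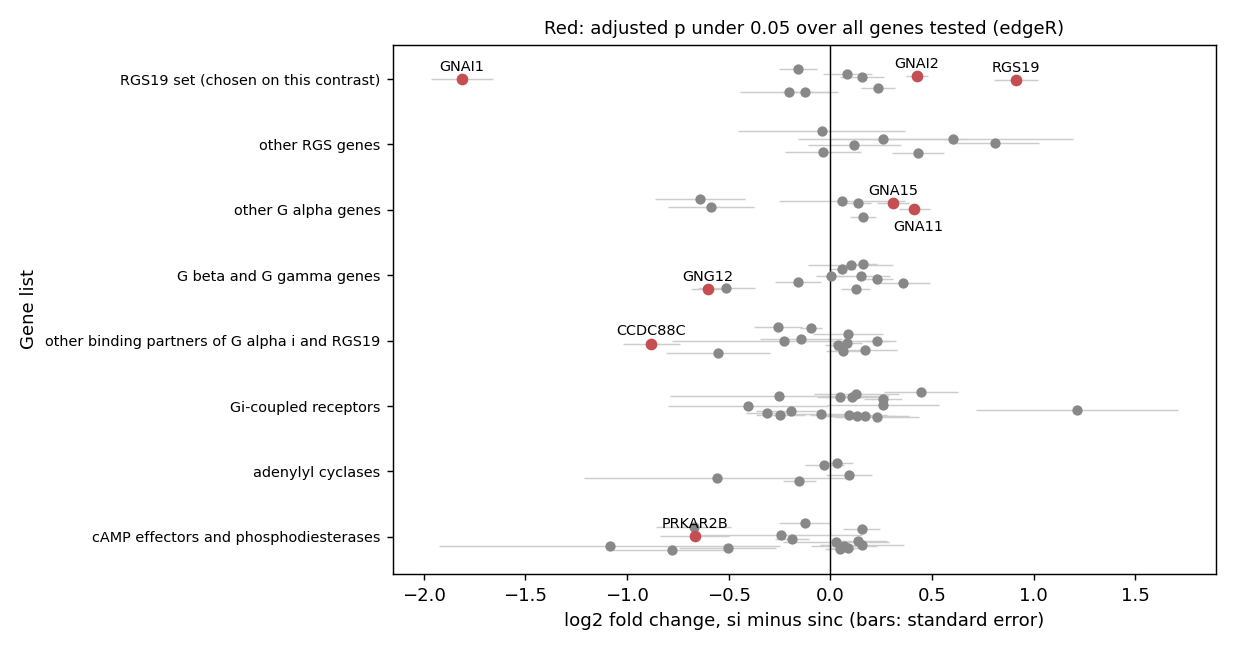
Log2 fold change with standard error of each tested gene of the RGS19 set and of the 7 pathway lists, 1 point per row, with an adjusted p under 0.05 by edgeR in red and named. Most of the plotted list rows lie between -0.7 and 0.5, and the named rows are 2 higher and 3 lower outside the RGS19 set.

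Of 7 other alpha subunit genes tested, 2 rose, 0 fell and 5 did not pass, with a median log2 fold change of 0.13. DESeq2 called 2 higher and 2 lower, and 3 were higher and 2 lower at an unadjusted p under 0.05. Among all genes tested, edgeR called 4.14% higher and 6% lower and DESeq2 8.38% and 10.4%. At an unadjusted p under 0.05 these shares were 14.1% and 15%. GNA11, a Gq-type subunit that activates phospholipase C beta, rose from 94.7 ± 4.68 to 126 ± 9.49 CPM (log2 fold change 0.41, SE 0.07, adjusted p = 0.0179 by edgeR). GNA15, another Gq-type subunit, rose from 32.9 ± 1.97 to 40.7 ± 2.18 CPM (log2 fold change 0.31, SE 0.08, adjusted p = 0.0457 by edgeR). The si values of both genes were above the sinc values in all 3 libraries. Leaving out si replicate 1 or any sinc replicate ended the call of GNA11 (adjusted p up to 0.094), and GNA15 lost it in 5 of the 6 fits without 1 library (adjusted p up to 0.18), after the length and GC correction (0.27), with limma-voom (0.0501), without a filter (0.13) and with the replicate number as a block (0.12). GNA11 also lost its call when the correction and the block were combined (0.063). GNAQ, also of the Gq type, and GNA13 were both below their sinc values in all 3 si libraries and did not pass; both were picked once their values had been seen. GNAQ stood at 16.0 ± 2.00 CPM in sinc and 10.2 ± 3.22 in si (log2 fold change -0.64, SE 0.22, adjusted p = 0.11), and GNA13 at 21.5 ± 5.11 and 14.3 ± 3.34 CPM (log2 fold change -0.59, SE 0.21, adjusted p = 0.12). GNAS, the stimulatory subunit that opposes the inhibitory ones and was picked once its value had been seen, stood at 1064 ± 30.4 CPM over the sinc libraries against 1168 ± 84.6 over the si libraries (adjusted p = 0.22).

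Of 11 beta and gamma subunit genes tested, 0 rose, 1 fell and 10 did not pass, with a median log2 fold change of 0.10. DESeq2 called 1 higher and 2 lower, and 3 were higher and 2 lower at an unadjusted p under 0.05. The higher and lower shares of all genes tested were 4.14% and 6% by edgeR, 8.38% and 10.4% by DESeq2, and 14.1% and 15% unadjusted. GNG12, a widely expressed gamma subunit, fell from 131, 111 and 129 CPM in sinc replicates 1, 2 and 3 to 77.2, 87.8 and 79.4 CPM in si (log2 fold change -0.60, SE 0.09, adjusted p = 0.00875 by edgeR). The transcript has 37.9% GC, and after the length and GC correction the log2 fold change was -0.23 (adjusted p = 0.25). The call was also lost without sinc replicate 1 (adjusted p = 0.0547).

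Of 12 other partners of the inhibitory subunits and of RGS19 tested, 0 rose, 1 fell and 11 did not pass, with a median log2 fold change of -0.03. DESeq2 called 1 higher and 1 lower, and 1 was higher and 1 lower at an unadjusted p under 0.05. The higher and lower shares of all genes tested were 4.14% and 6% by edgeR, 8.38% and 10.4% by DESeq2, and 14.1% and 15% unadjusted. CCDC88C, also known as DAPLE, is a non-receptor activator of inhibitory alpha subunits. It fell from 17.5, 21.1 and 20.9 CPM in sinc replicates 1, 2 and 3 to 11.03, 11.97 and 9.30 CPM in si (log2 fold change -0.88, SE 0.14, adjusted p = 0.0121 by edgeR). Leaving out si replicate 1, sinc replicate 2 or sinc replicate 3 ended the call (adjusted p between 0.0512 and 0.0599). It passed after the length and GC correction, and with the replicate number as a block added to it the adjusted p was 0.0514. GIPC1, which binds the end of RGS19 through its PDZ domain and was picked once its value had been seen, stood at 230 ± 11.3 CPM over the sinc libraries against 244 ± 19.8 over the si libraries (log2 fold change 0.08, SE 0.07, adjusted p = 0.52).

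Receptors that couple to inhibitory G proteins were mostly low. Of 62 listed, 38 were in the table and 17 were tested, and 0 passed by edgeR's adjusted p, with a median log2 fold change of 0.11. At an unadjusted p under 0.05, 3 were higher and 1 was lower, against 14.1% and 15% of all genes. DESeq2 called 0 higher and 1 lower, against 8.38% and 10.4%, and limma-voom called 0, against 4.35% and 6.64%. F2R, the thrombin receptor PAR1, was the most abundant, at 31.6 ± 0.977 CPM over the sinc libraries against 25.4 ± 3.30 over the si libraries (log2 fold change -0.31, SE 0.10, adjusted p = 0.094 by edgeR), and it was the receptor that DESeq2 called lower. ADORA1, the adenosine A1 receptor, was at 23.6 ± 1.62 and 28.2 ± 2.14 CPM (log2 fold change 0.26, SE 0.09, adjusted p = 0.12 by edgeR). The lysophosphatidic acid receptor genes LPAR1, LPAR2 and LPAR3, named after their values were seen, had log2 fold changes of 0.13 (SE 0.19), 0.11 (SE 0.13) and -0.05 (SE 0.16) and did not pass.

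Of 7 rows of other RGS genes tested, 0 passed by edgeR's adjusted p and by limma-voom, DESeq2 called 1 higher, against 8.38% of all genes, and 2 were higher at an unadjusted p under 0.05, against 14.1%. The most abundant were RGS20, a close relative of RGS19, at 7.82 ± 0.425 CPM over the sinc libraries against 10.5 ± 0.731 over the si libraries (log2 fold change 0.43, SE 0.13, adjusted p = 0.068 by edgeR), and RGS9, at 6.39 ± 0.774 and 6.23 ± 1.23 CPM (log2 fold change -0.04, SE 0.19, adjusted p = 0.92). RGS20 was above its sinc values in all 3 si libraries and was the gene that DESeq2 called (adjusted p = 0.0332). RGS4, picked once its value had been seen, had the highest log2 fold change of these rows, 0.81 (SE 0.21, adjusted p = 0.051), at 1.78 ± 0.140 CPM in sinc and 3.13 ± 0.598 in si.

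Adenylyl cyclases are the direct targets of the inhibitory subunits. Of 5 adenylyl cyclase genes tested, 0 passed by edgeR, 0 by DESeq2, 0 by limma-voom and 0 with an unadjusted p below 0.05. As edgeR called 10.1% of all genes tested, 0 of 5 lies near that share, and nothing is read from these counts. ADCY3 stood at 106 ± 8.64 CPM over the sinc libraries against 104 ± 11.3 over the si libraries, and ADCY6 at 98.9 ± 4.84 and 101 ± 9.22 CPM. Of 15 genes of cAMP effectors and phosphodiesterases tested, 0 rose, 1 fell and 14 did not pass, with a median log2 fold change of -0.13. DESeq2 called 0 higher and 2 lower, and 0 were higher and 3 lower at an unadjusted p under 0.05. The higher and lower shares of all genes tested were 4.14% and 6% by edgeR, 8.38% and 10.4% by DESeq2, and 14.1% and 15% unadjusted. PRKAR2B, a regulatory subunit of protein kinase A, fell from 4.03, 4.35 and 3.59 CPM in sinc replicates 1, 2 and 3 to 2.58, 2.62 and 2.33 CPM in si (log2 fold change -0.67, SE 0.17, adjusted p = 0.0478 by edgeR). The call was lost in each of the 6 fits without 1 library (adjusted p between 0.0556 and 0.16), after the length and GC correction (0.27), with limma-voom (0.0514), without a filter (0.079) and with the replicate block (0.12).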

How the data were processed

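The authors deposited raw counts, as whole numbers, by gene and library; rows carry a symbol beside the Ensembl ID. CASAVA and StringTie were used per the submitters' processing notes; not given in the sources used here are the aligner, the build, the annotation and the strand setting. The libraries were made from poly(A) RNA with a strand-marking dUTP step, per the labels' protocols. Of the symbols, 790 that were placeholders, dates or irregular were replaced through a name table by gene ID, none of them a member's. The test was edgeR 4.0.16 in R 4.3.3 (filterByExpr at a minimum count of 10, TMM, glmQLFit and glmQLFTest, group as the only term, two-sided, Benjamini-Hochberg, threshold 0.05). Each standard error was taken as the size of the log2 fold change divided by the root of its F. The common biological coefficient of variation was 18.8%.

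The 10 members and all gene lists were chosen with earlier results of these data known. Named genes were the members, SOGA1, per list up to 4 called genes or else the 2 most abundant, the neighbours within 50 kb of RGS19, and the 5 genes most like RGS19; others are marked as named after their values were seen. Length, GC content and sequence came from the coding transcript with the longest coding sequence in GENCODE 29, which 81.9% of the genes tested had; the promoter came from RefSeq, where all 10 members matched. Alternatives were 3 other scalings, DESeq2 1.42.0, limma-voom (limma 3.58.1), no filter, a minimum count of 50, a replicate block, each library left out, and splines with 4 degrees of freedom for length and GC content, with and without the block. The fit on the genes of that correction without it was added after the data were seen. A single simulated data set took each gene's mean level from these libraries and its dispersion from edgeR's fitted trend. Changes were planted in some genes. On that data set DESeq2 made more false calls than its threshold allows, and edgeR and limma-voom did not. That draw held neither the spread of single genes around the fitted trend nor the relation to length and GC content. It therefore cannot rank the tools for these libraries.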

Additional observations from a re-analysis of the deposited data

How the results depend on the processing

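The alternatives refit the libraries that chose the members, so that the members' values under them are a description only. Genes higher and lower over the transcriptome were 645 and 934 as reported. Higher genes numbered 1005 with upper-quartile scaling and 163 without a filter. DESeq2 gave 1304 and 1622, the replicate block 102 and 336, the length and GC correction 259 and 354 of 12749, that correction with the block 87 and 184, and the same genes without it 859 and 1040. Without 1 library the counts ran from 31 to 781 higher and from 172 to 1782 lower, the lowest without sinc replicate 1 and the highest without si replicate 2.

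Of the pathway rows outside the members, 2 were higher and 3 lower as reported. Higher rows numbered 4 with upper-quartile scaling, 5 with DESeq2, 1 with limma-voom, 1 without a filter, 4 at a minimum count of 50, 1 with the replicate block, 0 with the length and GC correction and the block, and 4 on the same genes without it. Lower rows numbered 8 with DESeq2, 5 at a minimum count of 50, 1 with the length and GC correction, 0 with that and the block, and 5 on the same genes without it. Without 1 library the higher rows ran from 0 (without any of the sinc replicates or si replicate 1) to 3 and the lower rows from 1 (without the same libraries) to 9 (without si replicate 2). The causes were not tested. SOGA1 passed in every alternative.

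Same-numbered libraries did not deviate together (correlations of their deviations from the group means -0.18, -0.04 and 0.15 for numbers 1, 2 and 3), so that the numbers were not taken as pairs. Across different numbers the correlations ran from -0.27 (sinc replicate 3 with si replicate 2) to 0.32 (sinc replicate 1 with si replicate 2). What lies behind these was not tested. Members kept within 1 SD of their reported log2 fold change in 141 of 153 fits, and the 12 others were fits with the length and GC correction. That SD is the spread of log2 CPM between single libraries, pooled over the groups. Leaving out 1 library or changing the scaling can hardly move a value that far, so that the 141 are no measure of robustness. RGS2, at 80 to 128 counts a library, is the member most limited by depth among those tested.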

Other observations

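The genes whose profile over the 6 libraries was most like that of RGS19 were GANAB, HABP4, ZDHHC16, PCNX3 and TPM4. Likeness was the root mean square difference of log2 CPM, each gene centred on its own mean, and came to 0.087, 0.093, 0.093, 0.094 and 0.104. HABP4 stood at 8.66, 8.55 and 12.2 CPM in sinc replicates 1, 2 and 3 and at 17.2, 16.7 and 18.0 CPM in si. TPM4, a tropomyosin gene, stood at 151, 150 and 209 CPM in sinc and at 313, 289 and 341 CPM in si. Like RGS19, each of the genes named here had sinc replicate 3 as its highest sinc library. No test was made, since closeness to RGS19 over the 6 libraries fixes the difference between the groups and favours the same order of libraries within them.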
